A study of Mus musculus with 15 samples.

Results

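The NMDA-type glutamate receptor genes were followed in RNA-seq libraries of mouse cerebellum and striatum. The members were the rows of the expression table with the symbols Grin1, Grin2a, Grin2b, Grin2c, Grin2d, Grin3a and Grin3b. They were chosen by gene family, under a rule that used no measured value, although earlier results of these data were known. All 7 were found among 26628 genes. The 15 libraries were made from male Hsd:ICR mice, aged 6 weeks by the labels and somewhat older by the methods of the study, with 4 samples of the cerebellum of the control line (CeCo), 4 of the cerebellum of the line bred for high wheel running (CeHi), 4 of the striatum of the control line (StCo) and 3 of the striatum of the high-running line (StHi). Mice of both lines had access to a running wheel for 7 days before dissection, so the control groups were not sedentary. Each line was represented by 1 breeding line, and the effect of selection and any other difference between these lines cannot be told apart.

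NMDA receptors are ligand-gated cation channels that open when glutamate and a co-agonist, glycine or D-serine, are bound while the membrane is depolarised. Every receptor contains the obligatory Grin1 subunit, which binds the co-agonist, together with Grin2 subunits, which bind glutamate and set how long the channel stays open and how strongly magnesium blocks it, or with Grin3 subunits, which bind glycine and lower calcium entry. Grin2b is prominent in the forebrain, Grin2c is known for its expression in cerebellar granule cells, Grin2a rises after birth in many regions, and Grin2d is known from the diencephalon and brainstem and from interneurons.

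The members lie on 7 chromosomes, and the coordinates that follow are those of GRCm38 with the GENCODE M21 annotation. Grin1 is at chr2:25291181-25319187, Grin2a at chr16:9567898-9995560, Grin2b at chr6:135713233-136173511, Grin2c at chr11:115249169-115267243, Grin2d at chr7:45831883-45878378 and Grin3a at chr4:49661611-49845744, all on the minus strand. Grin3b is at chr10:79970715-79977190 on the plus strand. Their longest annotated transcripts differ widely, from 3283 bases for Grin3b, 4276 for Grin1, 4895 for Grin2c and 5431 for Grin2d to 7491 for Grin3a, 14634 for Grin2a and 24060 for Grin2b. The same transcripts differ in GC content, with 59.4% G and C in Grin1, 62.1% in Grin2c, 65% in Grin2d and 63.4% in Grin3b against 44.8% in Grin2a, 45.7% in Grin2b and 49.2% in Grin3a.

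Promoter sequences from RefSeq, on build GRCm38.p6, were held for 4 members (Grin1, Grin2c, Grin2d and Grin3b). The 250 bases before the start of Grin1 and of Grin2c, at chr2:25319188-25319437 and chr11:115267244-115267493 on the minus strand, are shown because these genes had the most fragments and the lowest line values in cerebellum. The capitals mark CACGTG, the E-box, and GGGCGG, the GC box.
Grin1: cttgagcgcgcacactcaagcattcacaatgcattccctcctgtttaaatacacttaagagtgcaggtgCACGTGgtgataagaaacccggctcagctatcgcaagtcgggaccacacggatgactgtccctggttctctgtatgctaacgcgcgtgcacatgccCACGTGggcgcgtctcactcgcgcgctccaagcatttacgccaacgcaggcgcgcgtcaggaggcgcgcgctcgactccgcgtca
Grin2c: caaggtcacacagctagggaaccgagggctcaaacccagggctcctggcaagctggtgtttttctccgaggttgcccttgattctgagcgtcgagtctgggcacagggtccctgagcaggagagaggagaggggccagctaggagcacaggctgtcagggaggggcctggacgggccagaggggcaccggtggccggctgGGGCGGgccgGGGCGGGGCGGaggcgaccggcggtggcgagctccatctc
The Grin1 window held 2 matches of CACGTG and 0 of GGGCGG, and the Grin2c window held 3 of GGGCGG, of which the last 2 overlap by a base, and 0 of CACGTG. Searched on both strands, GGGCGG was found in 32.7% and CACGTG in 6.02% of 32851 promoter windows of this length, and the cAMP response element TGACGTCA was found in 1.55% of them and in 0 of the 4 members. The GC content was 68.8% in the Grin2c window and 58.8% in the Grin1 window, beside a median of 52.4% over all windows, 11% of which were at or above the Grin2c value. These are matches of letters, and binding was not measured.

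Values are normalized counts, that is, fragment counts divided by a factor per library and not by gene length, so that 1 fragment equals 0.841 to 1.297 normalized counts. The libraries held 32909383 to 47485535 fragments. All 7 members passed the filter of at least 1 CPM, a fragment count scaled to the size of the library, in 3 samples. The other 6 did so in all 15 samples, whereas Grin3b reached that level in 4 of 4 CeCo, 4 of 4 CeHi, 1 of 4 StCo and 2 of 3 StHi samples. Differences between groups are given on the log2 scale, with a pseudocount of 1, as Hi minus Co or Ce minus St, with their standard error (SE). Adjusted p-values come from limma with Benjamini-Hochberg adjustment over 15213 genes, and a gene was called at an adjusted p under 0.05.

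The labelled tissues carried their markers. The summed normalized count of 8 granule cell markers was 245345 to 303721 in cerebellum and 5010 to 6866 in striatum, and that of 11 striatal projection neuron markers was 15459 to 17686 in cerebellum and 232153 to 319204 in striatum. Other cell types varied within and between groups. The 6 choroid plexus markers summed to 1462 to 116524 over the cerebellar samples, and the 7 brainstem and thalamic markers to 4394 in CeHi replicate 3 against 1295 to 1835 in the other cerebellar samples, and to 2497 to 2952 in StHi against 754 to 1601 in StCo. The 7 cortical excitatory neuron markers summed to 19259 to 41108 in StHi and 35737 to 53217 in StCo, and the 7 oligodendrocyte markers to 297007 to 337405 in StHi and 193453 to 281662 in StCo. The part of these other cells in the results was not tested, and in whole tissue, fewer cells of a type and less RNA per cell cannot be told apart.

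Between the regions, the subunit genes parted in 2 directions. In the control line, Grin2c and Grin3b were higher in cerebellum, and Grin1, Grin2a, Grin2b and Grin3a were lower, so that 6 of 7 members were called, where 74.7% of all genes were, 37.8% higher and 36.9% lower. In the high-running line 5 of 7 were called, 2 higher and 3 lower, where 70.5% of all genes were, 35.4% higher and 35.1% lower. Across both lines 6 of 7 were called, where 80.2% of all genes were. A call between regions was therefore the common outcome for any gene, and the members differed from each other in the size and the direction. Samples of the regions did not overlap for 5 of 7 members in the control line, where 70% of all genes did not, and for 4 of 7 in the high-running line, where 68.2% did not.

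Grin1, the obligatory subunit, was the member with the most fragments in striatum. In cerebellum it stood at 14268, 13838, 13223 and 13796 normalized counts in CeCo and at 11743, 11662, 12314 and 11749 in CeHi. In striatum it stood at 21599, 20534, 23341 and 20501 in StCo and at 21746, 19893 and 22273 in StHi. Every striatal sample was above every cerebellar sample. The level in cerebellum was 1.56-fold lower in the control line (log2 difference -0.64, SE 0.053, adjusted p = 6.06e-09) and 1.80-fold lower in the high-running line (log2 difference -0.85, SE 0.057, adjusted p = 5.80e-10). Antisense to Grin1 lies Grin1os, which shares 1307 exon bases with it, 13.5% of its exon bases, and was listed at 131 to 272 normalized counts. The strand setting of the counting was not stated in the sources used here.

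Grin2c, the subunit known from granule cells, had the opposite distribution. Its normalized count was 14822, 15269, 12769 and 15067 in CeCo and 13010, 12939, 12638 and 11316 in CeHi. In striatum it was 2481, 2647, 2532 and 2694 in StCo and 2924, 2818 and 2350 in StHi. The regions did not overlap, and the lowest cerebellar sample was far above the highest striatal one. The cerebellar level was 5.56-fold higher in the control line (log2 difference 2.48, SE 0.073, adjusted p = 9.18e-15) and 4.62-fold higher in the high-running line (2.21, SE 0.078, adjusted p = 1.60e-13).

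Grin2b, the forebrain subunit, showed the widest gap of the family. Normalized counts were 80.2, 65.1, 85.3 and 84.6 in CeCo and 89.1, 126, 67.6 and 104 in CeHi, from 73 to 119 fragments per library. In striatum they were 1252, 1796, 1072 and 1833 in StCo and 964, 1605 and 1383 in StHi. No cerebellar sample came near the striatal range, although the striatal samples themselves spread widely. The cerebellar level was 18.3-fold lower in the control line (log2 difference -4.20, SE 0.21, adjusted p = 3.24e-11) and 13.6-fold lower in the high-running line (-3.77, SE 0.23, adjusted p = 4.49e-10).

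Grin2a, the Grin2 subunit that becomes widespread after birth, differed less and varied more. It stood at 707, 607, 615 and 623 normalized counts in CeCo and at 734, 901, 497 and 529 in CeHi. In striatum it stood at 996, 1129, 688 and 1057 in StCo and at 674, 911 and 946 in StHi. The regions overlapped in both lines. The log2 difference was -0.58 in the control line (SE 0.19, adjusted p = 0.0113) and -0.37 in the high-running line (SE 0.20, adjusted p = 0.113), and only the former was called, though the lines were not shown to differ (adjusted p = 0.904 for the interaction). Of all 50-base windows of its transcripts, 11.6% also occurred in transcripts of another gene that is no member, whereas the share was at most 0.0298% in the other members. The read pairs were longer than these windows, and whether they could be placed with certainty was not tested.

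Grin2d, the subunit of diencephalon, brainstem and interneurons, was not called in either line. It was at 434, 494, 538 and 476 normalized counts in CeCo, at 482, 401, 579 and 518 in CeHi, at 475, 599, 763 and 401 in StCo and at 645, 576 and 570 in StHi. The groups overlapped, and StCo alone covered nearly the whole range of the 15 samples. The log2 difference between regions was -0.17 in the control line (95% confidence interval -0.51 to 0.16, adjusted p = 0.338) and -0.28 in the high-running line (-0.65 to 0.08, adjusted p = 0.148).

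The Grin3 subunits, which bind glycine in place of glutamate, went in opposite directions. Grin3a was at 633, 726, 690 and 645 normalized counts in CeCo, at 753, 634, 616 and 777 in CeHi, at 850, 1048, 873 and 865 in StCo and at 841, 777 and 902 in StHi. It was lower in cerebellum by a log2 difference of -0.43 in the control line (SE 0.088, adjusted p = 0.000278) and of -0.28 in the high-running line (SE 0.095, adjusted p = 0.0141), with no overlap of the regions within a line, although the highest CeHi and the lowest StHi sample, 776.7 and 776.9, were almost equal. In the high-running line the adjusted p was 0.0723 without StHi replicate 2 and 0.0548 without CeHi replicate 2.

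Grin3b had few fragments, 31 to 117 per library. Its normalized count was 81.1, 81.1, 99.8 and 96.2 in CeCo and 89.1, 69.6, 85.2 and 71.9 in CeHi. In striatum it was 43.2, 34.6, 34.7 and 51.2 in StCo and 70.0, 61.2 and 36.8 in StHi. The regions were apart in the control line, with a cerebellar level 2.17-fold higher (log2 difference 1.12, SE 0.20, adjusted p = 6.94e-05), and overlapped in the high-running line (0.53, SE 0.21, adjusted p = 0.0368). The latter call was lost without StHi replicate 2 (adjusted p = 0.279), CeHi replicate 0 (0.0875) or CeHi replicate 2 (0.0764), and when the high-running line was fitted alone (0.0724) or the label number was taken as a block (0.0633). Tmem259, which the table lists under the name ORF61, runs on the opposite strand and shares 1059 exon bases with Grin3b, 32.1% of the exon bases of Grin3b. Tmem259 was at 4169 to 5175 normalized counts, and its own log2 difference between regions was 0.12 in the control line (adjusted p = 0.0414) and 0.07 in the high-running line (adjusted p = 0.249). Without strand, fragments of the shared bases cannot be told apart.

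**Figure D1:**
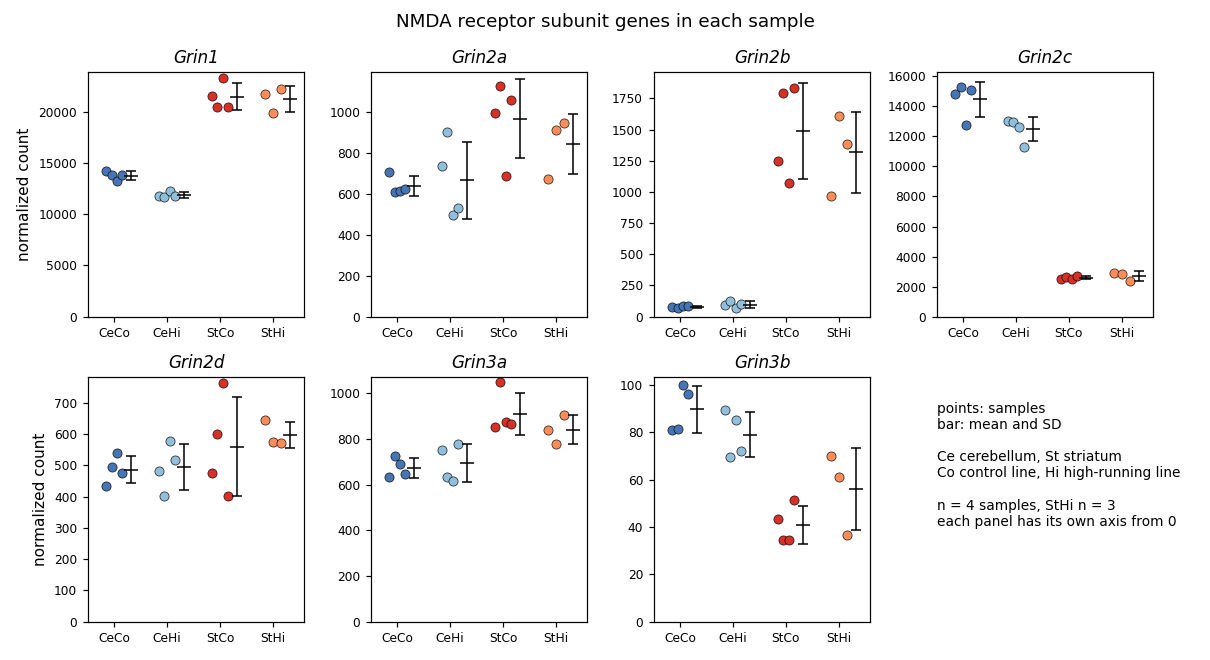
Normalized count of each subunit gene (y axis, linear, from 0, one scale per gene) in the groups CeCo, CeHi, StCo and StHi (x axis), with a point per sample and the mean and SD beside the points. Striatal samples sit above all cerebellar samples for Grin1 and Grin2b and below them for Grin2c, and the groups overlap for Grin2d.

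**Figure D2:**
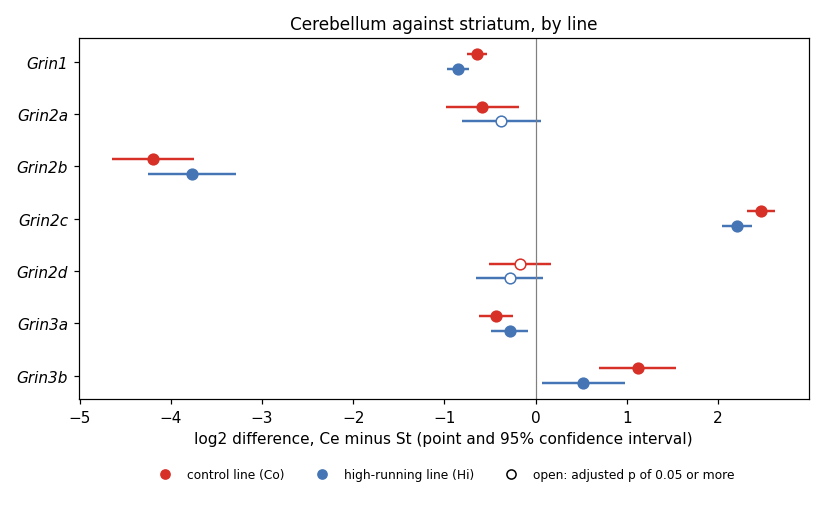
Log2 difference between cerebellum and striatum (x axis, Ce minus St) of each subunit gene (y axis) in the control and the high-running line, with 95% confidence intervals and open points where the adjusted p was 0.05 or more. Grin2b lies at -4.20 and -3.77, Grin2c at 2.48 and 2.21, and the other genes lie between -0.85 and 1.12.

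Levels of different genes can be compared only per length, and the length matters here. Divided by the kilobases of all annotated exons, the CeCo means were 2875 for Grin2c, 1421 for Grin1, 72.9 for Grin2d, 54.9 for Grin3a, 35.6 for Grin2a, 27.2 for Grin3b and 3.17 for Grin2b, and each neighbouring pair in this order was apart over the 4 samples. The StCo means were 2216 for Grin1, 514 for Grin2c, 84.1 for Grin2d, 74.1 for Grin3a, 59.9 for Grin2b, 53.9 for Grin2a and 12.4 for Grin3b, and from Grin2d to Grin2a each neighbouring pair overlapped. By this length, Grin1 and Grin2c stood far above the remaining members in both regions. With the longest transcript as the length, Grin1 led Grin2c in CeCo, at 3223 and 2958, with overlapping samples, and with the coding length it led at 4790 and 3896. In StCo the order below Grin2c began with Grin3a by the longest transcript (121) and with Grin2b by the coding length (335, beside 696 for Grin2c). The annotation the authors counted on is not stated in the sources used here, so only orders that hold under all 3 lengths are independent of this choice.

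As a share of the sum of the 4 Grin2 genes, per kilobase of exon, Grin2c made up nearly all of the sum in cerebellum. Its share was 96.2% ± 0.470 (SD, n = 4) in CeCo and 95.5% ± 0.194 (SD, n = 4) in CeHi, against 72.2% ± 1.67 (SD, n = 4) in StCo and 73.7% ± 3.20 (SD, n = 3) in StHi. Over both lines the regions differed by 23.0 percentage points with no overlap (two-sided exact permutation test, 8 against 7 samples, p = 0.000311, the smallest the design allows, adjusted p = 0.000932 over 21 tests). The length changes the striatal share more than the cerebellar one. By coding length it was 50.2% in StCo and 53.2% in StHi, and 93.1% in CeCo and 91.9% in CeHi, so the regions remained apart and Grin2c remained the largest part of the sum in each group mean.

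The remainder of the Grin2 sum was made up differently in the regions. In striatum, Grin2d held 11.8% ± 3.41 in StCo and 12.4% ± 0.893 in StHi, Grin2b held 8.37% ± 1.85 and 7.35% ± 1.91, and Grin2a held 7.56% ± 1.39 and 6.55% ± 1.503 (SD, n = 4 and 3). In cerebellum, Grin2d held 2.46% ± 0.401 in CeCo and 2.88% ± 0.518 in CeHi, Grin2a 1.20% ± 0.114 and 1.42% ± 0.353, and Grin2b only 0.107% ± 0.0189 and 0.150% ± 0.0393 (SD, n = 4). Each of these shares was apart between regions, with the same p-values as above. The order of the shares depends on the length. By coding length, Grin2b held 23.8% in StCo and 21.6% in StHi, Grin2a 15.7% and 14.1%, and Grin2d 10.3% and 11.1%. In cerebellum, by coding length, Grin2a held 3.49% in CeCo and 4.12% in CeHi, and Grin2d 2.95% and 3.43%. The shares sum to 100% in a sample, so they do not move independently.

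**Figure D3:**
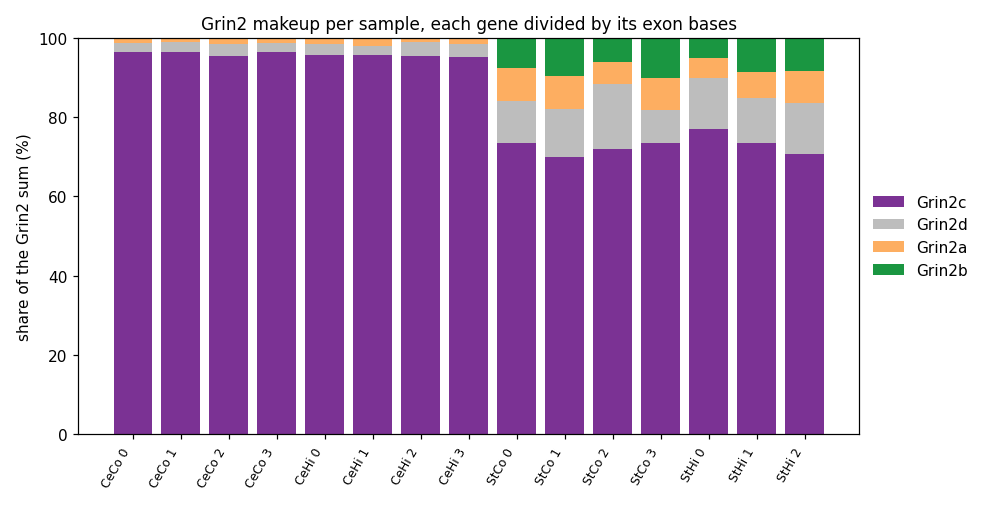
Share of Grin2c, Grin2d, Grin2a and Grin2b in the sum of the 4 Grin2 genes (y axis, %, each gene per kilobase of exon) in each of the 15 samples (x axis). Grin2c fills 95.3% to 96.5% of the bar in the 8 cerebellar samples and 70.0% to 77.0% in the 7 striatal samples, and Grin2b, at most 0.188% in cerebellum, is too thin to see there.

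For a ratio of 2 genes, the difference between groups does not depend on gene length. The log2 ratio of the normalized counts of Grin2a to Grin2b was 3.02 ± 0.186 in CeCo and 2.78 ± 0.297 in CeHi (SD, n = 4), and in striatum -0.61 ± 0.198 for StCo and -0.63 ± 0.166 for StHi (SD, n = 4 and 3). Grin2a thus had more fragments than Grin2b in every cerebellar sample and fewer in every striatal one. The log2 ratio of Grin2c to Grin2b was 7.53 ± 0.267 in CeCo and 7.05 ± 0.398 in CeHi, and in striatum 0.84 ± 0.337 for StCo and 1.06 ± 0.470 for StHi. The log2 ratio of the summed Grin2 genes to Grin1, per kilobase of exon, was 1.07 ± 0.0816 in CeCo and 1.08 ± 0.0953 in CeHi, and in striatum -1.64 ± 0.142 for StCo and -1.60 ± 0.186 for StHi. Each of the 3 ratios was apart between regions (adjusted p = 0.000932, exact permutation test). The last ratio sums several genes, so its level and its differences depend on the length. It was -0.061 in CeCo and -2.73 in StCo by the longest transcript, and -0.199 and -2.43 by the coding length.

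Between the lines, the members differed little. In cerebellum 1 of 7 members was called, where 5.94% of all genes were: Grin1, which was lower in the high-running line. The samples listed above for Grin1 were apart, with all 4 CeHi below all 4 CeCo, an order that 7.03% of all genes had, and 13.6% were apart in either direction. Grin1 fell by 14.2% (log2 difference -0.22, SE 0.053, 95% confidence interval -0.33 to -0.11, adjusted p = 0.0179). The call was lost in 4 of the 15 fits that left out a sample. The adjusted p was 0.0677 without CeCo replicate 0, 0.0501 without CeCo replicate 1 and 0.0510 without CeCo replicate 3. Without CeHi replicate 0 it was 0.0530. The log2 difference stayed between -0.24 and -0.20 when each sample was left out in turn.

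Grin2c had nearly the same log2 difference in cerebellum, -0.22 (SE 0.073, 95% confidence interval -0.37 to -0.07), but the groups overlapped and it was not called (adjusted p = 0.0902). CeCo replicate 2, at 12769, was the control sample inside the range of CeHi. Without it, Grin2c was called (adjusted p = 0.0369), as it was by DESeq2 with all samples (0.0450). In this comparison DESeq2 called 1390 of 15212 genes, and limma called 903 of 15213. The 2 genes with the most fragments of the family therefore had lower means in CeHi, while the ratio of the Grin2 sum to Grin1 differed between the lines by a log2 value of 0.012 (exact permutation test, p = 0.743, adjusted p = 0.840). Since Grin2c made up nearly all of that sum in cerebellum, the ratio mostly restates the 2 log2 differences. A single line difference could not have passed this test after adjustment.

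Granule cell markers lay on the same side without passing the test. Their sum was 267348 to 303721 in CeCo and 245345 to 272913 in CeHi, which overlap, and their median log2 difference was -0.13 beside -0.0021 over all genes. Of the 8, limma and edgeR called 0. In limma 1 was at an unadjusted p under 0.05, where 19.7% of all genes were. DESeq2 called 2, both lower. Of all genes, DESeq2 called 681 lower and 709 higher, and limma 455 lower and 448 higher. Purkinje cell markers summed to 277994 to 330727 in CeCo and 280110 to 315861 in CeHi, and astrocyte markers to 135129 to 151985 and 140945 to 157748. Of these 8 and 7 markers, limma and edgeR called 0, with 1 and 2 at an unadjusted p under 0.05 in limma. DESeq2 called 1 of each list, both higher. Oligodendrocyte markers summed to 174836 to 214721 in CeCo and 200406 to 257720 in CeHi, with 0 of 7 called and 2 at an unadjusted p under 0.05 in limma. Whether the makeup of the tissue had a part in the lower Grin1 was not tested. Grin1os, the antisense gene, had a log2 difference of -0.45 in cerebellum (adjusted p = 0.138).

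The other members did not pass the test in cerebellum, and their intervals show how far each could have differed. The log2 difference was 0.01 for Grin2a (95% confidence interval -0.39 to 0.42), 0.26 for Grin2b (-0.19 to 0.70), 0.01 for Grin2d (-0.32 to 0.35), 0.03 for Grin3a (-0.15 to 0.22) and -0.19 for Grin3b (-0.60 to 0.23). Intervals of Grin2a, Grin2b, Grin2d and Grin3b allow changes of a size larger than that of Grin1.

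In striatum 0 of 7 members were called by limma, edgeR or DESeq2, where 2.66% of all genes were called by limma. An unadjusted p under 0.05 was found for 0 of 7 members and for 14.1% of all genes. Grin1 was at a log2 difference of -0.02 (95% confidence interval -0.14 to 0.10) and Grin2c at 0.05 (-0.12 to 0.21). Grin3b had the largest value of the family, 0.41 (-0.04 to 0.86, adjusted p = 0.424), with StHi replicate 2 inside the range of StCo. Without that sample it was 0.68, and without StHi replicate 0 it was 0.22. The lines overlapped for all 7 members, whereas 13.1% of all genes were apart. Grin2a was at -0.19 (-0.63 to 0.24), Grin2b at -0.18 (-0.66 to 0.31), Grin2d at 0.13 (-0.24 to 0.49) and Grin3a at -0.12 (-0.32 to 0.08).

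The difference of the line effects between regions was tested by the interaction, in which 0 of 7 members were called by limma, edgeR or DESeq2 and 0.532% of all genes were called by limma. At an unadjusted p under 0.05 there were 2 of 7 members, Grin1 and Grin2c, where 9.56% of all genes were. The interaction was -0.20 for Grin1 (SE 0.077, adjusted p = 0.363), -0.27 for Grin2c (SE 0.11, adjusted p = 0.396) and -0.59 for Grin3b (SE 0.29, adjusted p = 0.557). That Grin1 was called in cerebellum and not in striatum is thus not shown to be a difference between the regions. Across both regions the line difference of Grin1 was -0.12 (SE 0.039, adjusted p = 0.0673 in limma). Of the 7 members, limma and edgeR called 0, where limma called 8.48% of all genes (1290 of 15213). DESeq2 called 1, Grin1 (adjusted p = 0.0221), and 1718 of 15212 genes in all. In limma 1 member was at an unadjusted p under 0.05, where 22.3% of all genes were.

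**Figure D4:**
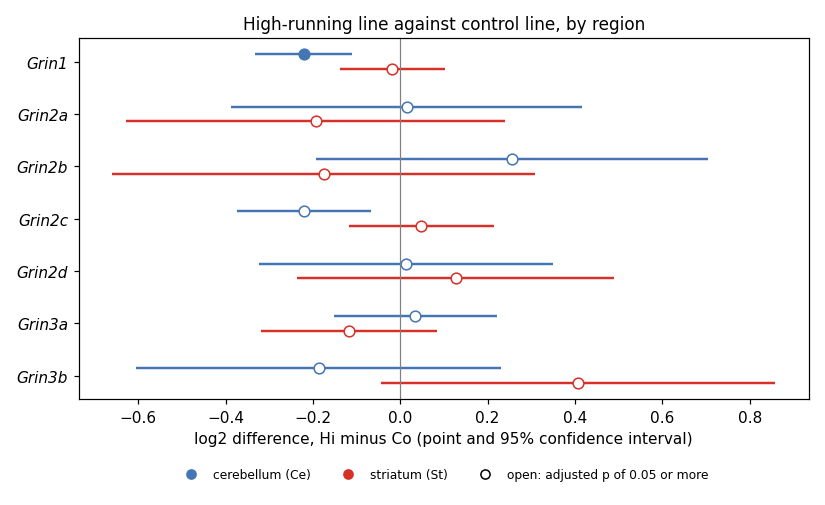
Log2 difference between the lines (x axis, Hi minus Co) of each subunit gene (y axis) in cerebellum and striatum, with 95% confidence intervals and open points where the adjusted p was 0.05 or more. The filled point is Grin1 in cerebellum, at -0.22, and the interval of Grin2c in cerebellum also lies below 0.

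No difference between the lines in the makeup of the Grin2 genes passed the test, in a design too small for a single one to pass. The Grin2c share was lower in CeHi than in CeCo by a difference of -0.692 percentage points (exact permutation test, p = 0.0857, adjusted p = 0.225), the smallest p among 14 tests between lines. The samples overlapped, with CeCo replicate 2 at 95.5% inside the range of CeHi. In striatum the Grin2c share differed by 1.47 points (exact permutation test, p = 0.514, adjusted p = 0.635). With 4 against 4 samples the smallest p this test can give is 0.0286, and with 3 against 4 it is 0.0571, so no line difference in striatum could have passed it, and a single one in cerebellum could not have passed after adjustment over 21 tests.

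Within groups, some of the subunits did not vary independently. Taking each sample's log2 deviation from its group mean, Grin2a and Grin2b deviated together (Pearson r = 0.764 over 15 samples), and Grin2d went against both (r = -0.749 with Grin2a and -0.595 with Grin2b). Grin1 also went against Grin2b (r = -0.724). A pair of samples shows the pattern: CeHi replicate 1 deviated by 0.48 in Grin2a, 0.41 in Grin2b and -0.29 in Grin2d, and StCo replicate 2 by -0.47, -0.44 and 0.49. Pairs that include Grin2c, Grin3a or Grin3b had an r from -0.373 (Grin1 with Grin3b) to 0.491 (Grin2c with Grin3b). These correlations are descriptions, and the points share their libraries.

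Properties of the libraries moved with some of these deviations. The balance of GC-rich against GC-poor genes was taken as the median deviation of the 1334 genes with at least 58.0% G and C in their longest transcript minus that of the 1334 genes with at most 41.5%. It ranged from -0.086 to 0.159 and correlated with the deviation of Grin2d (r = 0.76). The correlation was inverse for Grin2a (r = -0.71) and, less, for Grin2b (r = -0.29). For the other members r was 0.39 for Grin1, -0.08 for Grin2c, -0.05 for Grin3a and -0.05 for Grin3b. Grin1, Grin2c and Grin3b lie above the 58.0% limit, as Grin2d does, and no member lies below the 41.5% limit. The median deviation of 349 genes with a transcript of at least 10000 bases correlated with Grin2a (r = 0.76), Grin2b (r = 0.37) and Grin2d (r = -0.44). For the other members r was -0.27 for Grin1, 0.31 for Grin2c, -0.22 for Grin3a and -0.13 for Grin3b. The part of these library properties in the spread of the members was not tested. Between the lines the balance overlapped, with median log2 levels of GC-rich minus GC-poor genes of -0.785 to -0.610 in CeCo and -0.834 to -0.567 in CeHi. Between the regions it was apart, at -0.834 to -0.567 in cerebellum and -0.473 to -0.195 in striatum, and its part in the region differences of the members was not tested.

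**Figure D5:**
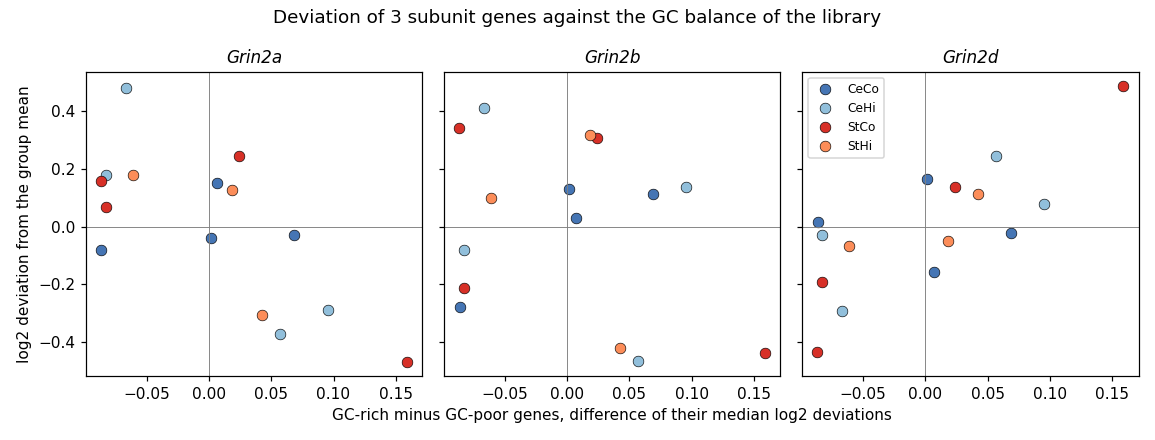
Log2 deviation of Grin2a, Grin2b and Grin2d from the group mean (y axis) against the balance of GC-rich and GC-poor genes in the library (x axis, difference of median log2 deviations), with a point per sample coloured by group. Grin2d rises with the balance (r = 0.76) and Grin2a falls (r = -0.71), and StCo replicate 2 lies farthest right at 0.159. The members not drawn had an r of 0.39 (Grin1), -0.08 (Grin2c), -0.05 (Grin3a) and -0.05 (Grin3b).

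Genes that supply or remove the co-agonists of Grin1 lay on both sides between the regions, at shares near those of all genes. Of 16 such genes, 8 were higher and 5 lower in cerebellum in the control line, where 37.8% and 36.9% of all genes were, and the median log2 difference was 0.23 beside 0.01 over all genes. Dao, which degrades D-serine, was at 1903 ± 300.3 normalized counts in CeCo and 2056 ± 280.1 in CeHi (SD, n = 4), and at 2.67 ± 0.910 in StCo and 4.21 ± 2.53 in StHi (SD, n = 4 and 3), a level of a few fragments. Slc6a5, the glycine transporter of glycinergic neurons, was at 380 ± 39.4 in CeCo and 433 ± 84.2 in CeHi and listed at 0 to 2.1 in StCo and at 0 in StHi. Both were far above their striatal levels in every cerebellar sample.

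Between the lines, this list had calls in both regions. In cerebellum 2 of 16 were higher in the high-running line and 0 lower, where 2.94% and 2.99% of all genes were. Gcsh, the H protein of the glycine cleavage system, was at 1098 ± 127 in CeCo and 1649 ± 106 in CeHi (SD, n = 4), with no overlap and a log2 difference of 0.58 (SE 0.088, adjusted p = 0.000459). Psat1, an enzyme of serine synthesis, was at 3085 ± 446 and 3978 ± 384, with overlapping samples (0.37, SE 0.085, adjusted p = 0.0147). Both calls held when any single sample was left out, with adjusted p up to 0.00269 for Gcsh and 0.0444 for Psat1, and without CeHi replicate 3 and StHi replicate 0 together the adjusted p of Psat1 was 0.0524. It was 0.0631 when each region was fitted alone.

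In striatum 2 of 16 were also higher and 0 lower, where 1.49% and 1.17% of all genes were. Gcsh was at 1350.0 ± 176 in StCo and 1813 ± 56.2 in StHi (0.43, SE 0.096, adjusted p = 0.0200). Slc6a9, a glial glycine transporter that clears glycine near NMDA receptors, was at 1885 ± 203 and 2420.0 ± 147 (0.36, SE 0.082, adjusted p = 0.0250). Neither overlapped between the lines. The striatal calls were less secure: leaving out a single sample took the adjusted p to as much as 0.0734 for Gcsh (without StHi replicate 1) and 0.131 for Slc6a9 (without the same sample). Fitting each region alone gave 0.0504 for Gcsh and 0.0673 for Slc6a9, and limma without trend and robust moderation gave 0.0522 for Slc6a9.

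Scaffold proteins of the postsynaptic density, which anchor the receptor, were mostly lower in cerebellum. Of 18 genes, 3 were higher and 13 lower in the control line, with a median log2 difference of -0.84, where 37.8% of all genes were higher and 36.9% lower. Between lines in cerebellum 1 was higher and 1 lower, where 2.94% and 2.99% of all genes were. Actn2, an actin crosslinker that binds Grin1 and Grin2b, was at 59.6 ± 12.4 in CeCo and 30.6 ± 9.24 in CeHi, against 3698 ± 407 for StCo and 3451 ± 512 for StHi. It was also lower in CeHi than in CeCo (log2 difference -0.98, SE 0.19, adjusted p = 0.00584), with no overlap and an adjusted p of at most 0.0240 without any single sample. These are low counts, at 19.0 to 40.2 in CeHi and 48.1 to 76.6 in CeCo. Dlgap4, a scaffold partner of Dlg4, was higher in CeHi (0.17, SE 0.048, adjusted p = 0.0444), a call lost in 13 of the 15 fits that left out a sample, with the highest adjusted p, 0.125, without CeCo replicate 2. Dlgap2, of the same family, had a log2 difference of -6.14 across regions (SE 0.18, adjusted p = 7.27e-14). In striatum 0 of 18 were called between lines by limma and edgeR and 1 by DESeq2. Of all genes, DESeq2 called 711 there and limma 405. In limma 4 of 18 were at an unadjusted p under 0.05, where 14.1% of all genes were.

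Genes of receptor transport and surface partners gave 4 higher and 8 lower of 14 in cerebellum in the control line, with a median of -0.29. That is a share of calls near that of all genes (74.7%), as was 1 of 14 between lines in cerebellum (5.94% of all genes). Kif17, the motor that carries Grin2b vesicles, had a log2 difference of -2.66 across regions (SE 0.30, adjusted p = 2.33e-06), and Neto1, an auxiliary protein of NMDA and kainate receptors, of -5.81 (SE 0.097, adjusted p = 7.52e-18). Ephb2, a receptor tyrosine kinase that associates with NMDA receptors, was higher in cerebellum and was the gene of this list called between lines there. It was at 1948 ± 202 in CeCo and 1493 ± 86.8 in CeHi (-0.39, SE 0.099, adjusted p = 0.0294), and 6 of 15 fits without a sample lost the call, with an adjusted p of up to 0.0908, without CeCo replicate 0, as did limma without trend and robust moderation (0.0514). In striatum 0 of 14 were called by limma, edgeR or DESeq2, with 1 at an unadjusted p under 0.05 in limma, where 14.1% of all genes were.

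Kinases, phosphatases and calmodulin genes, which act on the receptor or downstream of its calcium, were lower in cerebellum for 17 and higher for 4 of 22 in the control line, with a median of -0.56, beside 36.9% lower and 37.8% higher among all genes. Ptk2b, a kinase upstream of Src, had a log2 difference of -7.43 across regions (SE 0.21, adjusted p = 1.07e-12), and Ptpn5, the striatum-enriched phosphatase that acts on Grin2b, of -4.90 (SE 0.082, adjusted p = 1.68e-17). In cerebellum 2 of 22 were higher in the high-running line and 0 lower, where 2.94% and 2.99% of all genes were. Camk2a, a kinase that binds Grin2b, was at 3713 ± 203 in CeCo and 4757 ± 709 in CeHi (0.34, SE 0.087, adjusted p = 0.0266), and Prkca, a protein kinase C, was at 2476 ± 211 and 3125 ± 424 (0.32, SE 0.082, adjusted p = 0.0266). Leaving out a sample lost the call of Camk2a in 4 of 15 fits (adjusted p up to 0.0738, without CeCo replicate 2) and that of Prkca in 5 (up to 0.0800, without CeCo replicate 3). Without trend and robust moderation the adjusted p in limma was 0.0512 for Camk2a and 0.0521 for Prkca, and fitting each region alone gave 0.0664 for Prkca. Striatal projection neuron markers summed to 15459 to 16026 in CeCo and 15984 to 17686 in CeHi, with a median log2 difference of 0.39 beside -0.0021 over all genes. Of these markers 5 of 11 were at an unadjusted p under 0.05 in limma, where 19.7% of all genes were. They gave 0 calls by limma and edgeR and 1, higher, by DESeq2, which called 709 genes higher in all, where limma called 448. The part of these markers in the higher Camk2a was not tested. In striatum 0 of 22 were called by limma, edgeR or DESeq2, with 3 at an unadjusted p under 0.05 in limma, where 14.1% of all genes were.

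Among 9 effectors coupled to the calcium of the receptor, 3 were higher and 6 lower in cerebellum in the control line, with a median of -0.54, where 37.8% and 36.9% of all genes were. The widest gaps were those of Rasgrf2, a calcium-responsive exchange factor for Ras (log2 difference across regions -4.20, SE 0.20, adjusted p = 1.03e-10), and of Kalrn, an exchange factor for Rac in dendritic spines (-3.42, SE 0.045, adjusted p = 2.40e-19). Between lines in cerebellum 0 of 9 were called by limma and edgeR and 1 by DESeq2, which called 1390 genes in all, where limma called 903. In limma 4 of 9 were at an unadjusted p under 0.05, where 19.7% of all genes were. In striatum each of the 3 tools called 0, and 0 were at an unadjusted p under 0.05, where 14.1% of all genes were in limma.

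The AMPA, kainate and related ionotropic glutamate receptor genes, the nearest relatives of the members, served as a comparison. Of 11, in the control line 4 were higher in cerebellum and 6 lower, where 37.8% and 36.9% of all genes were, with a median of -0.54, beside -0.43 for the NMDA receptor genes. Gria4, an AMPA receptor subunit, had a log2 difference of 2.70 across regions (SE 0.052, adjusted p = 1.62e-17). Between lines 0 of 11 were called by limma, edgeR or DESeq2 in either region. At an unadjusted p under 0.05 in limma there were 0 in cerebellum and 1 in striatum, where 19.7% and 14.1% of all genes were. In the interaction 0 genes of these 6 pathway lists were called by limma and edgeR. At an unadjusted p under 0.05 there were 1 to 6 per list, where 9.56% of all genes were in limma. DESeq2 called 2 scaffold genes and 1 kinase gene, and 277 genes in all, where limma called 81.

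The genes whose log2 values followed each member most closely over the 15 samples were found among all genes tested, as a description. For Grin2b they were Shc3, Kcnq3 and Tcf20 (Pearson r = 0.998, 0.997 and 0.996), and for Grin2c they were Appl2, Zfp385c and Tspan9 (0.998, 0.997 and 0.997). For Grin1 they were Cdk9, Mov10 and Nol6 (0.99, 0.989 and 0.989), for Grin2a Bmpr2, Eif2c2 and Mib1 (0.97, 0.942 and 0.93), and for Grin2d Syt3, Nynrin and Caskin1 (0.904, 0.903 and 0.888). For Grin3a they were Aida, 2310009B15Rik and Fbxl21 (0.951, 0.946 and 0.934), and for Grin3b Pxmp2, Tmbim1 and St3gal4 (0.938, 0.932 and 0.931). The points fall into the 2 regions, so for members with a wide gap between regions the value mostly restates that gap.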

How the data were processed

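RNA was extracted from dissected cerebellum and striatum, and the authors aligned paired-end reads to GRCm38 with TopHat2 and scaled gene values with Cuffnorm 2.2.1, per the labels and the methods of the study. The deposited table is named for FPKM, but its values behave as a signal that the authors made by dividing fragment counts by a factor per library and not by gene length: in each library 99.6% to 99.8% of the low values came out as whole fragments, with a tolerance of 0.1. The floor of 3 fragments covers counting error only. All columns were mapped to samples by their labels.

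Genes with a CPM of at least 1 in 3 samples (15213) were scaled by TMM (divisors 0.993 to 1.01), transformed as log2 of the value plus 1 and fitted with limma 3.58.1 (trended, robust) in R 4.3.3, with 1 mean per group over all 15 samples. edgeR 4.0.16 and DESeq2 1.42.0 on recovered fragments, other scalings, filters, pseudocounts, sample weights, blocks and left-out samples were the alternatives. The quasi-likelihood test of edgeR had been set for whole counts, and limma was used because the deposited values are not whole. For shares and ratios an exact permutation test, two-sided, was used and adjusted over 21 tests. Scripts were tested on simulated data.

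Label numbers were checked for pairing: deviations of equally numbered CeCo and StCo samples correlated at 0.171 to 0.278, those of CeHi and StHi at -0.075 to 0.051, those of CeCo and CeHi at -0.221 to 0.183 and those of StCo and StHi at -0.043 to 0.196. Only between CeCo and StCo were all correlations of equal numbers above 0, beside means of -0.103 to -0.0485 with the other numbers. Samples of different lines, which cannot share a mouse, reached 0.196. Pairing in the control line is therefore not established by these values, and the labels do not give it. The values given are from the fit without a block, and the block changed no member call between regions in the control line. The study removed a StHi sample, so StHi numbers need not match CeHi numbers, and pairing in the high-running line cannot be judged. The permutation tests treated all samples as independent.

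The members, gene lists and tests were chosen with earlier results of these data known. The named genes are all members, list genes called between lines or in the interaction, the 2 largest region differences of each list, and the 3 genes most like each member, and 1 gene that this rule names is not reported here. Older symbols in the table were matched to current ones. GC content was known for 13340 of 15206 genes (87.7%).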

Additional observations from a re-analysis of the deposited data

Results flagged for a closer look

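In 42 groups of 4 samples, 5 held a sample whose gap to its nearest neighbour exceeded 0.829 of the range of the group, a limit that chance passes in about 1 of 20 groups. The Grin1 normalized count of CeHi replicate 2 was 12314, above the 11662 to 11749 of the other CeHi samples (gap 0.866 of the range), and it is the CeHi sample nearest to the control line. The Grin2a normalized count of CeCo replicate 0 was 707, above 607 to 623 in the other CeCo samples (0.847). The Grin3a normalized count of StCo replicate 1 was 1048, above 850 to 873 (0.888). The Grin2a share of the Grin2 sum was 5.49% in StCo replicate 2, below the 8.10% to 8.38% of the other StCo samples (0.901). The Grin2c share was 95.5% in CeCo replicate 2, which had the highest choroid plexus marker sum of all samples (116524), and this gap was the widest of the 5 (0.984). Its part was not tested.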

How the results depend on the processing

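Outside the fits that left out 1 sample, 141 of 148 values that answer a comparison and 815 of 847 values of single genes kept their direction and their side of the threshold. On the recovered fragments, edgeR called 952 genes between lines in cerebellum, 420 in striatum and 100 in the interaction, and DESeq2 called 1390, 711 and 277, where limma called 903, 405 and 81. Under DESeq2, 2 members were called between lines in cerebellum, with Grin2c (adjusted p = 0.0450), and 1 across regions, Grin1, and Grin2d was called between regions across lines (0.0456). With sample weights, Grin2a was called between regions in the high-running line (0.0416). With a replicate block of the label number, 1 member, Grin1 (adjusted p = 0.0485), was called between lines across regions and 1 in cerebellum, Grin3b was lost between regions in the high-running line (0.0633), and no other member call changed. With the block within line, 7 members were called between regions across lines, with Grin2d (adjusted p = 0.0330), and the count of 6 in the control line did not change.

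Signs turned for small line differences. In striatum, Grin1 was at 0.015 under quantile scaling and 0.015 with sample weights, Grin2c at -0.029 with weights, and the ratio of Grin2 to Grin1 at -0.014 by coding length, an alternative chosen after seeing the data. Without CeHi replicate 3 and StHi replicate 0 together, Grin2d was at -0.0096 and Grin3a at -0.018 in cerebellum, Grin2b at 0.035 and Grin2c at -0.0124 in striatum, and Grin2a at 0.037 across regions, while in striatum the Grin2b share differed by 0.092 points, the Grin2c share by -0.182 points and the log2 ratio of Grin2c to Grin2b by -0.047. The cause was not tested.

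With each sample left out in turn, 0 to 2 members were called between lines in cerebellum, 3 to 6 between regions in the high-running line, and 6 to 7 across lines. In cerebellum the log2 line difference ranged from -0.14 to 0.15 for Grin2a, -0.061 to 0.115 for Grin2d, -0.0192 to 0.0952 for Grin3a and -0.024 to 0.052 for the ratio of Grin2 to Grin1. Without a turn of sign, Grin2b ranged from 0.12 to 0.42 in cerebellum, and in striatum Grin2a from -0.35 to -0.04 and Grin3b from 0.22 to 0.68. The striatal line difference ranged from -0.0505 to 0.0301 for Grin1, -0.334 to 0.0334 for Grin2b, -0.01 to 0.14 for Grin2c and -0.02 to 0.29 for Grin2d, and the ratios from -0.080 to 0.077 for Grin2a to Grin2b, -0.047 to 0.371 for Grin2c to Grin2b and -0.047 to 0.137 for Grin2 to Grin1. The striatal shares differed by -1.74 to 0.092 points for Grin2b, -0.182 to 3.01 for Grin2c and -0.630 to 2.08 for Grin2d. Across regions, Grin2b ranged from -0.0391 to 0.145 and Grin2d from -0.0023 to 0.15, and the interaction of Grin2d from -0.276 to 0.0313. Low counts limit Grin3b, and 3 StHi samples limit the striatal comparison.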
